A study of Mus musculus with 10 samples.

Results

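The genes of the urea cycle were followed through premalignant mouse lung cells of 3 APE1 genotypes. The set held 9 genes, picked by symbol from a raw count table of 25277 genes: the enzymes Nags, Cps1, Otc, Ass1 and Asl, the arginases Arg1 and Arg2, and the mitochondrial carriers Slc25a15 and Slc25a13. Of the 9, 7 had enough counts to be tested among 13464 genes, and Cps1 and Otc did not. In short, no member passed the edgeR quasi-likelihood test in any comparison of genotypes (Benjamini-Hochberg adjusted p under 0.05), and limma voom called none. DESeq2 called 1, Arg1, in flox/flox against flox/+ and in flox/N211A against flox/flox, among 8.21% and 5.36% of the genes it tested. EdgeR without a filter on counts called Arg1 in flox/flox against flox/+, among 0.963% of genes. The cycle was present in pieces: its liver-type mitochondrial steps were at or near 0, while Arg2, Asl and Ass1 were read in all 10 libraries. Arg1 was not read in any flox/flox library, and 5 of the 9 members took more of their summed level from a single library than from the other 9 together.

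The urea cycle joins ammonia and the nitrogen of aspartate into urea and is complete chiefly in the liver. Carbamoyl phosphate and citrulline are made inside mitochondria, and argininosuccinate, arginine and urea are made in the cytosol, so ornithine, citrulline and aspartate have to be carried across the inner mitochondrial membrane. Outside the liver, parts of the cycle serve other ends: argininosuccinate synthase and lyase remake arginine for nitric oxide, and arginases supply ornithine for polyamines and proline.

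RNA sequencing was done on 10 libraries of lung tissue, each made from about 500 cells that the labels call premalignant. Their RNA was copied and preamplified by a variant of SMART-Seq2, a method that reads whole transcripts of few cells, and 1 ng of cDNA went into each library. Every group carried at least 1 flox allele of APE1, which Cre recombinase can remove, and every group is labelled with Cre-adenoviral infection and a time of 12 wk. The genotypes were flox/N211A (n = 3, a flox allele beside the allele named N211A), flox/flox (n = 3) and flox/+ (n = 4, a flox allele beside the wild-type allele, the control). The sources used here do not give strain, age, the promoter that drives Cre, the part of the gene that Cre removes or the way the cells were isolated. The title of the series ties APE1, an endonuclease of base excision repair encoded by Apex1, to the transcription of urea cycle genes and to DNA G-quadruplexes in lung adenocarcinoma. Nothing in the labels states that replicates are separate animals, so p-values measure the spread between these samples, which may be technical. In bulk samples, fewer cells of a type and less RNA per cell cannot be told apart.

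Libraries held 8955368 to 17070817 counts in flox/N211A, 10672334 to 53678659 in flox/flox and 13221853 to 17707731 in flox/+. Flox/flox replicates 2 and 3 stood apart: their rank correlations with other libraries over the tested genes ran from 0.560 to 0.665, against 0.660 to 0.898 among the other 8. Flox/flox replicate 2 had 0 counts for 34.2% of the tested genes, against 2.82% to 16.6% in the other 9 libraries. Levels are given as CPM, the customary depth-normalized unit, taken over the scaled total count of each library. A floor of 3 counts, which covers counting error only since the reads carried no molecular identifiers, lay between 0.0747 and 0.282 CPM. Apex1 itself stood at 7.86, 12.9 and 6.45 CPM in flox/N211A replicates 1 to 3, at 6.02, 0 and 0.573 in flox/flox, and at 4.12, 15.9, 35.9 and 54.1 in flox/+. Flox/+ replicate 1 thus lay below flox/flox replicate 1, and the edgeR quasi-likelihood test did not separate the genotypes (adjusted p = 0.353 with flox/flox against flox/+, and 1.00 and 0.660 with flox/N211A against flox/+ and against flox/flox). Epithelial markers were read throughout, with surfactant gene Sftpc at 36144 ± 1826 CPM in flox/N211A, 16855 ± 4865 in flox/flox and 92928 ± 46669 in flox/+ (SD, n = 3, 3 and 4). The club cell gene Scgb1a1 was also high in all genotypes, so markers of more than 1 epithelial lineage were read in these libraries. Bulk levels do not tell whether the same cells held both.

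Because the series title names G-quadruplexes, the promoter windows of the members in RefSeq (GRCm38.p6, 250 bases before to 50 bases after a gene's start) were searched for 4 runs of at least 3 G separated by loops of 1 to 7 bases, on both strands. Windows were found for 5 of the 9 members: Nags, Otc, Ass1, Slc25a15 and Slc25a13. The motif was in 2 of these 5 genes, against 20.4% of 27025 genes in the same table. Ass1 is shown since it had the motif, with matches that began 168 and 78 bases before the start and were 24 and 23 bases long. Slc25a15 is shown since 1 of its 2 windows had the motif, with matches that began 53 and 24 bases before the start and were 21 and 22 bases long. Nags is shown as a window of a cycle enzyme without a match. Each is printed from 5′ to 3′ on the gene's strand, capitals mark the motif, and the places are chr2:31470020-31470319 (plus strand), chr8:22398572-22398871 (minus strand) and chr11:102145263-102145562 (plus strand).
Ass1: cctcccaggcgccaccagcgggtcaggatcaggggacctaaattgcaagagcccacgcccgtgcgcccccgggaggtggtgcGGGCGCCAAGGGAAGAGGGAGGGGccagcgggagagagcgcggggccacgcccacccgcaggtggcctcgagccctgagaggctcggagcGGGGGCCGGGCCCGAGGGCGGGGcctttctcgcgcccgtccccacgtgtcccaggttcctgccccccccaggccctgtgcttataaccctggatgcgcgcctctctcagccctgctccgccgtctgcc
Slc25a15: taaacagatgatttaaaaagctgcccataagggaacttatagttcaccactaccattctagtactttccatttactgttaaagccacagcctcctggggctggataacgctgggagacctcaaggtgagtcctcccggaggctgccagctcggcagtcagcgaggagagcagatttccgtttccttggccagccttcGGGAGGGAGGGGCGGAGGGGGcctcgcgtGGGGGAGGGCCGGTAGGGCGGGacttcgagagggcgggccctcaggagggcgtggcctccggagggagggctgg
Nags: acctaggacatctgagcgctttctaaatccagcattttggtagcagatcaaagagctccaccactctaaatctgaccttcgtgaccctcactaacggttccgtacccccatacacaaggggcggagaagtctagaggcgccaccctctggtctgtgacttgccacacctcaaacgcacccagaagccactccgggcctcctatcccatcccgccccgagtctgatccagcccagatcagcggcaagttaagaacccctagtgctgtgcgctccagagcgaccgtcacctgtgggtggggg
G and C made up 74.0% of the Ass1 window, 60.7% of the Slc25a15 window with the motif, 79.0% of its other window, 57.7% of the Nags window, 65.0% of the Slc25a13 window and 44.3% of the Otc window, against a median of 52.7% over all windows. A match of letters is a description and shows neither a folded structure nor binding of APE1.

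The mitochondrial entry of the cycle was nearly silent. Nags (chromosome 11, 102145513 to 102149477, GRCm38), which makes the activator of carbamoyl phosphate synthetase, had 0, 0 and 1.54 CPM in flox/N211A, 0 in all 3 flox/flox libraries, and 6.96, 2.83, 0 and 0 in flox/+. Reads thus came from 3 libraries (22, 93 and 52 counts), and 61.5% of the summed CPM was in flox/+ replicate 1. Cps1 (chromosome 1, 67123026 to 67231259), the carbamoyl phosphate synthetase that fixes ammonia, had 1 count in flox/N211A replicate 2, 4 and 27 counts in flox/flox replicates 2 and 3, and 0 in the other 7 libraries, flox/+ included. Otc (chromosome X, 10252305 to 10321024), which joins carbamoyl phosphate to ornithine, had 1 count in all, in flox/flox replicate 3. Neither Cps1 nor Otc passed 0.672 CPM in any library, so no difference between genotypes could be read for them. Hepatocyte markers were sparse beside them: 3 of 12 had enough counts to be tested, and the 12 summed to 1.38 to 74.2 CPM in flox/N211A, 0 to 145 in flox/flox and 1.05 to 38.0 in flox/+. Albumin (Alb), the defining gene of that list, had 0 counts in all flox/N211A and flox/flox libraries and in 3 of 4 flox/+ libraries, with 4.62 CPM in flox/+ replicate 2.

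**Figure D1:**
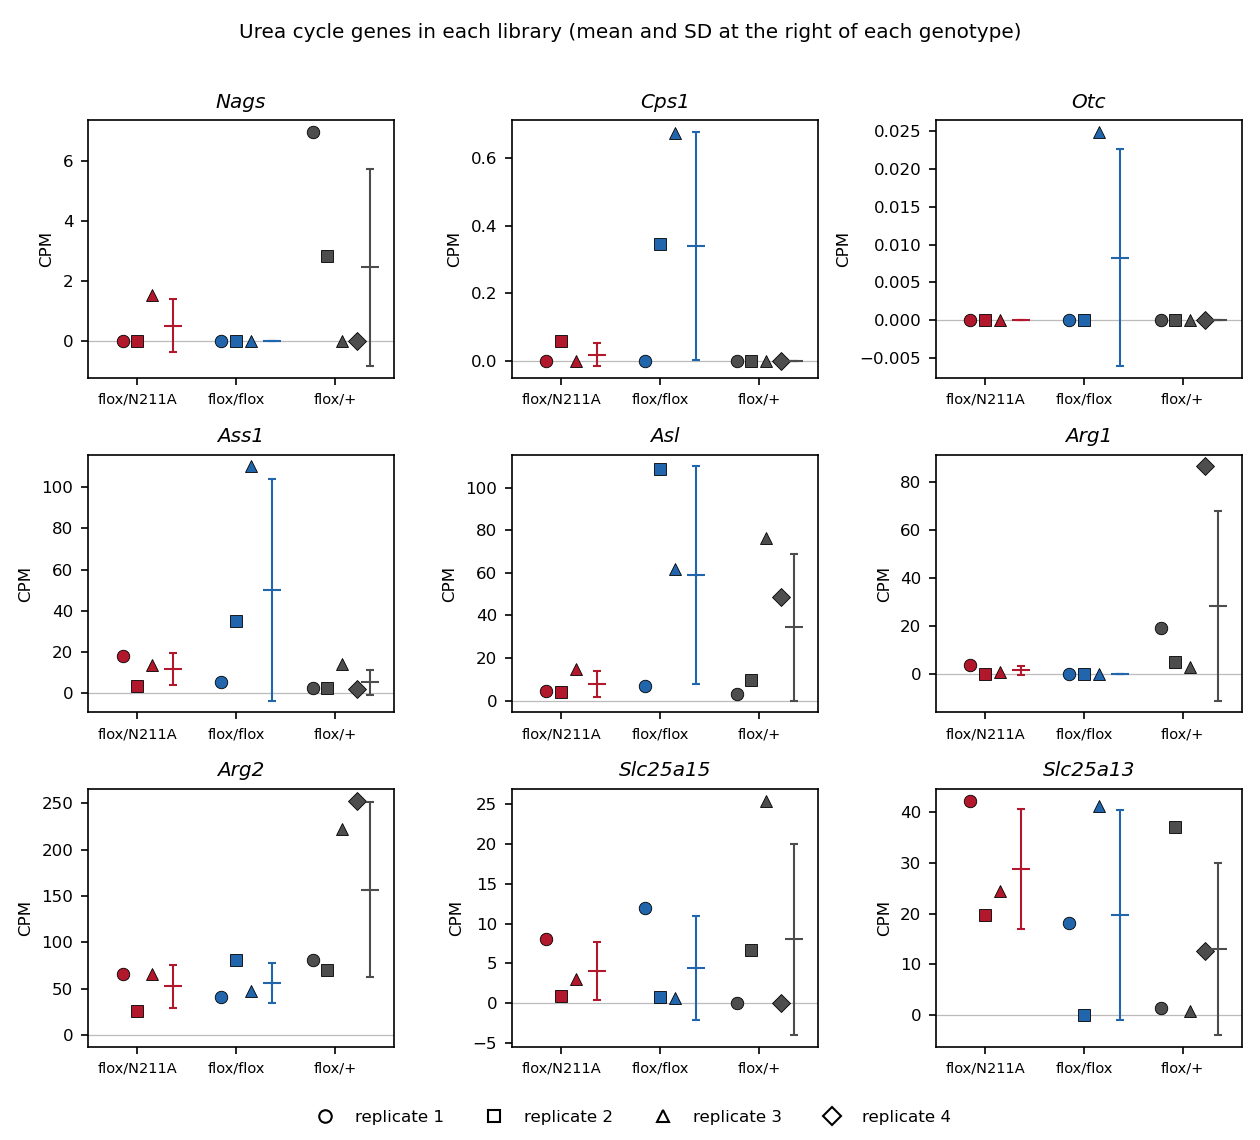
Level of each urea cycle gene (vertical axis, CPM on a linear scale, a separate range per panel) in each library, with flox/N211A, flox/flox and flox/+ from left to right; marker shapes are replicates, and the bars give mean and SD. The Ass1 mean of flox/flox is carried by replicate 3 at 110.0 CPM, and Arg1 is at 0 in the 3 flox/flox libraries.

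The cytosolic pair Ass1 and Asl was read in every library. Ass1 (chromosome 2, 31470207 to 31520672), which condenses citrulline with aspartate, stood at 18.3, 3.54 and 13.8 CPM in flox/N211A, at 5.74, 35.0 and 110.0 in flox/flox, and at 2.77, 2.45, 14.2 and 2.0 in flox/+. Flox/flox replicates 2 and 3 were the highest of all 10 and flox/flox replicate 1 lay inside the flox/+ range, so every pair of genotypes overlapped. Its log2 fold change for flox/flox against flox/+ was 3.23 (SE 1.26, unadjusted p = 0.0214, edgeR adjusted p = 0.302), with 3 of 3 flox/flox libraries above the flox/+ mean. It was 0.10 (adjusted p = 1.00) once flox/flox replicates 2 and 3 were left out. The promoter window of Ass1, like 1 of those of Slc25a15, holds 2 motif matches and is printed above. In flox/N211A against flox/+ the log2 fold change was 1.14 (SE 1.21, adjusted p = 1.00), and in flox/N211A against flox/flox it was -2.08 (SE 1.35, adjusted p = 0.554), which turned to 1.06 without flox/flox replicates 2 and 3.

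Asl (chromosome 5, 130011258 to 130029247), which splits argininosuccinate into arginine and fumarate, stood at 4.43, 4.25 and 14.7 CPM in flox/N211A, at 6.68, 108.7 and 61.7 in flox/flox, and at 3.14, 9.51, 76.4 and 48.5 in flox/+. In flox/N211A no library passed 14.7 CPM, while flox/flox and flox/+ each had libraries under 10 and libraries above 45. The log2 fold change was -2.14 in flox/N211A against flox/+ (SE 1.21, adjusted p = 1.00), 0.78 in flox/flox against flox/+ (SE 1.11, adjusted p = 0.807) and -2.92 in flox/N211A against flox/flox (SE 1.29, unadjusted p = 0.0378, adjusted p = 0.399). Without flox/flox replicates 2 and 3 the last 2 were -2.36 and 0.22, both turned in sign. Ass1 and Asl catalyse consecutive steps, yet their levels were only loosely related over libraries (Spearman rho 0.47 over 10 libraries and 0.05 over the 8 without flox/flox replicates 2 and 3, permutation p = 0.178 and adjusted p = 0.665 over 21 pairs of members, for the 10). Of the 21 pairs, 1 had an unadjusted permutation p under 0.05, Arg1 with Arg2. Their rho was 0.74 (permutation p = 0.0200, adjusted p = 0.420), and 0.85 over the 8 libraries.

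Arg1 and Arg2 both cut arginine into ornithine and urea, Arg1 in the cytosol and Arg2 in mitochondria. Arg1 (chromosome 10, 24915221 to 24927484) is the liver enzyme and in mice also marks alternatively activated macrophages. It had 3.61, 0 and 0.841 CPM in flox/N211A, 0 in all 3 flox/flox libraries, and 19.1, 4.84, 2.65 and 86.6 in flox/+. Every flox/+ library lay above every flox/flox library, whereas flox/N211A replicate 1 lay within the flox/+ range, and 73.6% of the summed CPM was in flox/+ replicate 4. With the floor of 3 counts per library, mean Arg1 was at least 138-fold lower in flox/flox than in flox/+, and leaving out flox/+ replicate 4 brought this bound to 43.1-fold. The fitted test did not pass (unadjusted p = 0.00157, edgeR adjusted p = 0.216), and DESeq2 called it (adjusted p = 2.20e-06) among 8.21% of the genes it tested. Over the edgeR alternatives that left out 1 library each, the adjusted p ran from 0.0774 to 0.425. Of the 8513 tested genes that, like Arg1, averaged 10 CPM or more in flox/+, 36 (0.423%) had 0 counts in all flox/flox libraries, and of all tested genes 3.33%. Arg1 reached that average through flox/+ replicate 4, and without it the Arg1 mean lay under 10 CPM.

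For flox/N211A against flox/+ the Arg1 log2 fold change was -4.25 (SE 2.11, adjusted p = 1.00), with means of 1.49 ± 1.89 CPM (SD, n = 3) and 28.3 ± 39.6 CPM (SD, n = 4). For flox/N211A against flox/flox it was at least 7.22-fold higher by the means (unadjusted p = 0.0121, adjusted p = 0.386) and at least 2.05-fold higher without flox/N211A replicate 1, though flox/N211A replicate 2 had 0 counts like the flox/flox libraries. DESeq2 called this difference too (adjusted p = 0.0195), among 5.36% of the genes it tested. Across the 10 libraries the Spearman rho of Arg1 with the mean level of macrophage markers was -0.04. Of 15 such markers 9 were tested, and the 15 summed to 252 to 322 CPM in flox/N211A, 303 to 1012 in flox/flox and 119 to 829 in flox/+, with C1qa at 0 in all libraries. Most of the sum was Plet1, at 190 ± 29.6 CPM in flox/N211A, 540 ± 319 in flox/flox and 267 ± 253 in flox/+, and Cd14. Some other markers, picked after their values were seen, were nearly absent from flox/flox as Arg1 was. Cd68 averaged 7.73 CPM in flox/N211A, 0.00830 in flox/flox and 7.67 in flox/+. Chil3 averaged 8.59, 0.0166 and 7.79 CPM in the same genotypes, Mrc1 1.45, 0.0498 and 1.37, and Fcgr3 1.56, 0.0166 and 1.40. Unlike Arg1, these had similar means in flox/N211A and flox/+. They were also sparse in flox/+, where Mrc1 had 0 counts in 3 of 4 libraries, Fcgr3 in 2, and Cd68 and Chil3 in 1 each. Arg1 was read in all 4. Lpl, Csf1r and Mertk had higher means in flox/flox than in flox/+, at 39.2 ± 30.4, 2.65 ± 4.39 and 5.30 ± 9.07 CPM (SD, n = 3). Their means in flox/+ were 8.95, 0.476 and 0.0459 CPM. In flox/N211A the means were 17.5, 6.06 and 1.72 CPM, so Csf1r was highest there. The flox/flox medians of Csf1r and Mertk were 0.224 and 0.0941 CPM, beside highest values of 7.72 and 15.8. In flox/flox against flox/+, 5 of the 9 tested macrophage markers had a log2 fold change above 0. The part of macrophages in the Arg1 result was not tested.

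Arg2 (chromosome 12, 79130777 to 79156301) was the steadiest member and the highest per length. It stood at 66.2, 25.9 and 65.6 CPM in flox/N211A, at 41.1, 81.0 and 47.1 in flox/flox, and at 81.2, 70.2, 222 and 253 in flox/+. The highest flox/N211A library lay just under the lowest flox/+ library, and flox/flox replicate 2 lay above flox/+ replicate 2. Means were 52.6 ± 23.1 CPM in flox/N211A, 56.4 ± 21.5 in flox/flox (SD, n = 3 each) and 157 ± 94.5 in flox/+ (SD, n = 4). The log2 fold change was -1.58 in flox/N211A against flox/+ (SE 0.64, unadjusted p = 0.0260, edgeR adjusted p = 1.00) and -1.47 in flox/flox against flox/+ (SE 0.64, unadjusted p = 0.0348, adjusted p = 0.317). Between flox/N211A and flox/flox it was -0.10 (SE 0.65, adjusted p = 0.967). The 2 comparisons with flox/+ share those controls, and flox/+ replicates 3 and 4 hold the high values in both. The end of Arg2 shares 285 bases with Vti1b, a SNARE gene on the opposite strand. The sources used here do not say whether counting used the strand, so their reads there cannot be told apart. Vti1b stood at 76.9 ± 29.4 CPM in flox/N211A, 89.3 ± 23.5 in flox/flox and 179 ± 83.1 in flox/+, and its part in the Arg2 result was not tested.

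Set against each other, the arginases gave a share that needs no scaling between libraries. Of all arginase reads, Arg1 held 5.18%, 0% and 1.27% in flox/N211A (of 772, 433 and 948 reads), 0% in each flox/flox library (of 437, 935 and 1890), and 19.0%, 6.45%, 1.18% and 25.5% in flox/+ (of 1339, 1380, 3397 and 6116). Where Arg1 was at 0, the floor of 3 counts stood at a share of 0.693% in flox/N211A replicate 2 and at 0.687%, 0.321% and 0.159% in flox/flox replicates 1 to 3, and the exact 95% intervals (two-sided, Clopper-Pearson) reached up to 0.848% in flox/N211A replicate 2 and to 0.841%, 0.394% and 0.195% in flox/flox. Flox/+ replicate 3, with the second highest Arg2 level, lay inside the flox/N211A range, and no flox/+ library reached down to flox/flox. The mean share was 2.15% ± 2.70 in flox/N211A (SD, n = 3), 0% in flox/flox (n = 3) and 13.0% ± 11.2 in flox/+ (SD, n = 4). The difference was -10.9 percentage points for flox/N211A against flox/+ (exact permutation test, two-sided, p = 0.229) and -13.0 for flox/flox against flox/+ (exact p = 0.0857). It was 2.15 for flox/N211A against flox/flox (exact p = 0.4). Adjusted over these 3, the exact p-values were 0.343, 0.257 and 0.4, and the smallest that 3 against 4 and 3 against 3 libraries allow are 0.0286 and 0.1.

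**Figure D2:**
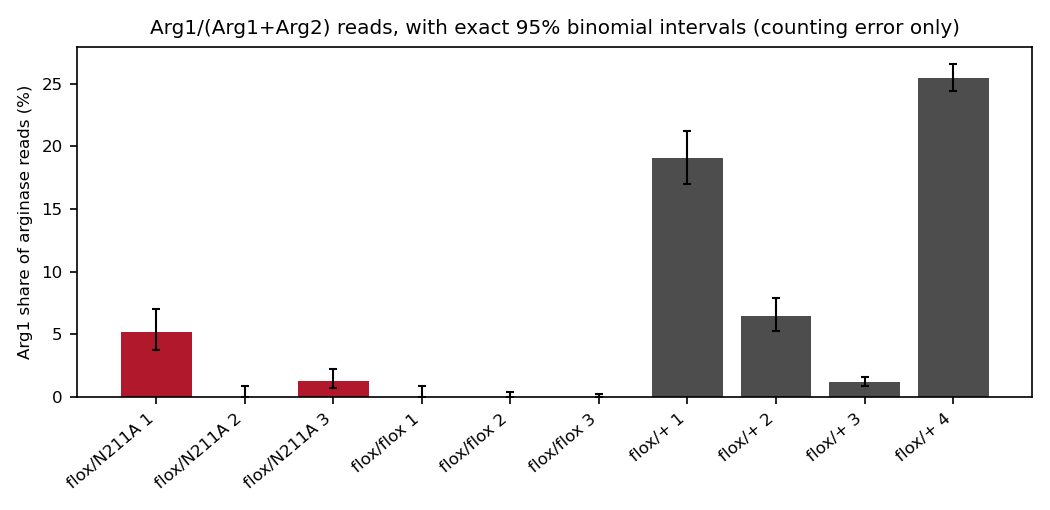
Arg1 reads as a percent of Arg1 and Arg2 reads (vertical axis, linear from 0) in each library, flox/N211A first, then flox/flox and flox/+; bars are single libraries and whiskers exact 95% binomial intervals, which cover counting error only. The share is 0% in the 3 flox/flox libraries and reaches 25.5% in flox/+ replicate 4.

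The libraries of the genotypes overlapped for both carriers in every comparison. Slc25a15 (chromosome 8, 22375551 to 22398597) exchanges ornithine for citrulline across the inner mitochondrial membrane. It stood at 8.04, 0.959 and 3.08 CPM in flox/N211A, at 12.0, 0.780 and 0.598 in flox/flox, and at 0, 6.63, 25.4 and 0 in flox/+. The lowest and the highest library were both flox/+, and the log2 fold change was -0.99 (SE 2.26) in flox/N211A against flox/+, -0.85 (SE 2.25) in flox/flox against flox/+ and -0.14 (SE 2.36) in flox/N211A against flox/flox (adjusted p of 0.908 or more). The related ornithine carrier Slc25a2 had 0 counts in 9 of 10 libraries and stood at 7.50 CPM in flox/+ replicate 4. Slc25a13 (chromosome 6, 6041218 to 6217173), the carrier citrin, brings aspartate out of mitochondria for the step of Ass1. It stood at 42.2, 19.7 and 24.4 CPM in flox/N211A, at 18.2, 0 and 41.1 in flox/flox, and at 1.5, 37.1, 0.861 and 12.7 in flox/+. All 3 flox/N211A libraries lay above the flox/+ mean, but flox/+ replicate 2 lay above flox/N211A replicates 2 and 3 (log2 fold change 1.14, SE 1.57, adjusted p = 1.00). In flox/flox against flox/+ it was 0.60 (SE 1.57, adjusted p = 0.906) and in flox/N211A against flox/flox 0.54 (SE 1.69, adjusted p = 0.926).

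**Figure D3:**
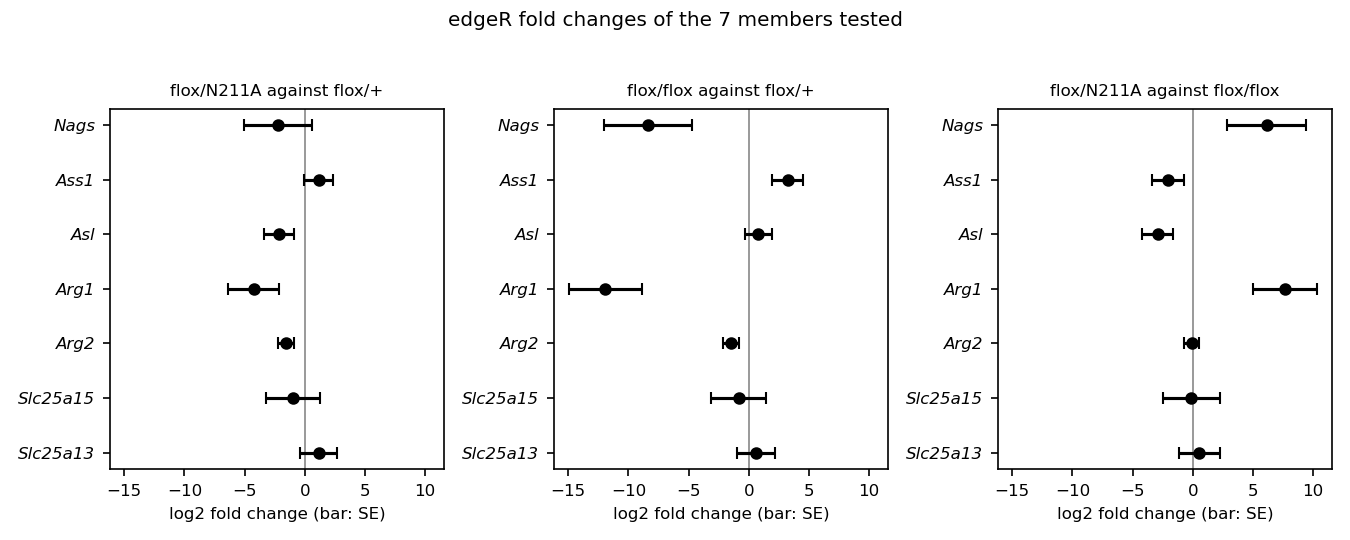
EdgeR log2 fold change of the 7 tested members (horizontal axis) in flox/N211A against flox/+, flox/flox against flox/+ and flox/N211A against flox/flox, from left to right; points are estimates and bars 1 SE. The estimates farthest from 0 belong to Arg1 and Nags, whose flox/flox libraries are all at 0 counts, so that their size depends on the prior count; no member passed an adjusted p of 0.05.

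Counted over the set, 0 of the 7 tested members were called in each of the 3 comparisons, and so were 0% of the 13464 genes by edgeR. At an unadjusted p under 0.05, flox/N211A against flox/+ had 0 members higher and 1 lower (Arg2), beside 0.728% and 0.706% of all genes. In flox/flox against flox/+ there were 1 higher (Ass1) and 3 lower (Nags, Arg1 and Arg2), beside 5.73% and 8.70% of all genes. Nags and Arg1 had no flox/flox reads and passed the filter on counts through the other genotypes alone. Neither could come out higher in flox/flox. In the comparisons with flox/flox, the counts of higher and lower members, the non-overlap and the medians are thus no measure of the set. Nags also had 0 counts in 2 of the 4 flox/+ libraries. In flox/N211A against flox/flox there was 1 higher (Arg1) and 1 lower (Asl), beside 7.63% and 4.42%. DESeq2 called 17, 1027 and 671 genes in these comparisons (0.133%, 8.21% and 5.36% of those it gave an adjusted p) and limma voom called 0 in each. Without the filter on counts edgeR called 0.0639%, 0.963% and 0.472% of all genes, with Arg1 among them in flox/flox against flox/+ (adjusted p = 0.00910). The groups did not overlap for 1 of 7 members in flox/N211A against flox/+, Arg2, which was lower, beside 6.14% of all genes (3.51% higher and 2.64% lower). In flox/flox against flox/+ it was Arg1, also lower, beside 10.6% (3.44% higher and 7.19% lower), and in flox/N211A against flox/flox it was 0 of 7, beside 18.6% (13.0% higher and 5.61% lower). Of the 7, 2, 3 and 3 had a log2 fold change above 0 in the comparisons in this order, beside 47.7%, 51.3% and 47.1% of all genes. The median log2 fold change of the 7 was -1.58 beside -0.04 over all genes, -0.85 beside 0.06, and -0.10 beside -0.11. In the last 2 comparisons the directions of Nags and Arg1 were fixed in advance.

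Per length of exon, Arg2 stood far above the other members. The mean over all libraries was 66.8 CPM per kb for Arg2, 8.61 for Ass1, 7.0 for Asl, 5.28 for Arg1, 5.21 for Slc25a13, 1.02 for Slc25a15, 0.399 for Nags, 0.0194 for Cps1 and 5.87e-04 for Otc. Arg2 was the highest member per kb in 9 of 10 libraries, and in flox/flox replicate 3 Ass1 stood above it at 45.6 against 33.0 CPM per kb. After Arg2, the order depended on the genotype. Slc25a13 came next in flox/N211A at 7.58 ± 3.12 CPM per kb (SD, n = 3), Ass1 in flox/flox at 20.8 ± 22.3 (SD, n = 3) and Arg1 in flox/+ at 12.7 ± 17.8 (SD, n = 4). The last 2 places rest on 1 library each: Asl came next in flox/flox without replicate 3 (11.9 CPM per kb, against 8.44 for Ass1) and in flox/+ without replicate 4 (6.14, against 3.98 for Arg1). Ass1, Asl, Arg1 and Slc25a13 lay within 1 SD of each other over the libraries. The coefficient of variation over the 10 libraries ran from 0.811 for Arg2 to 2.29 for Arg1, beside a median of 0.915 over the tested genes, and that of Arg1 was above 97.5% of them.

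Since markers of several cell types were read in these libraries, each member was set against the mean log2 CPM of marker genes of 11 lineages across libraries. Of the 77 relations, none passed an adjusted p of 0.05, by Spearman or by Pearson correlation, while 12 and 9 had an unadjusted permutation p under 0.05. The libraries of 3 genotypes are pooled in these values, and 3 or 4 libraries are too few for a value within a genotype. No lymphocyte score was made, since 1 of its 14 markers in the table had enough counts.

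**Figure D4:**
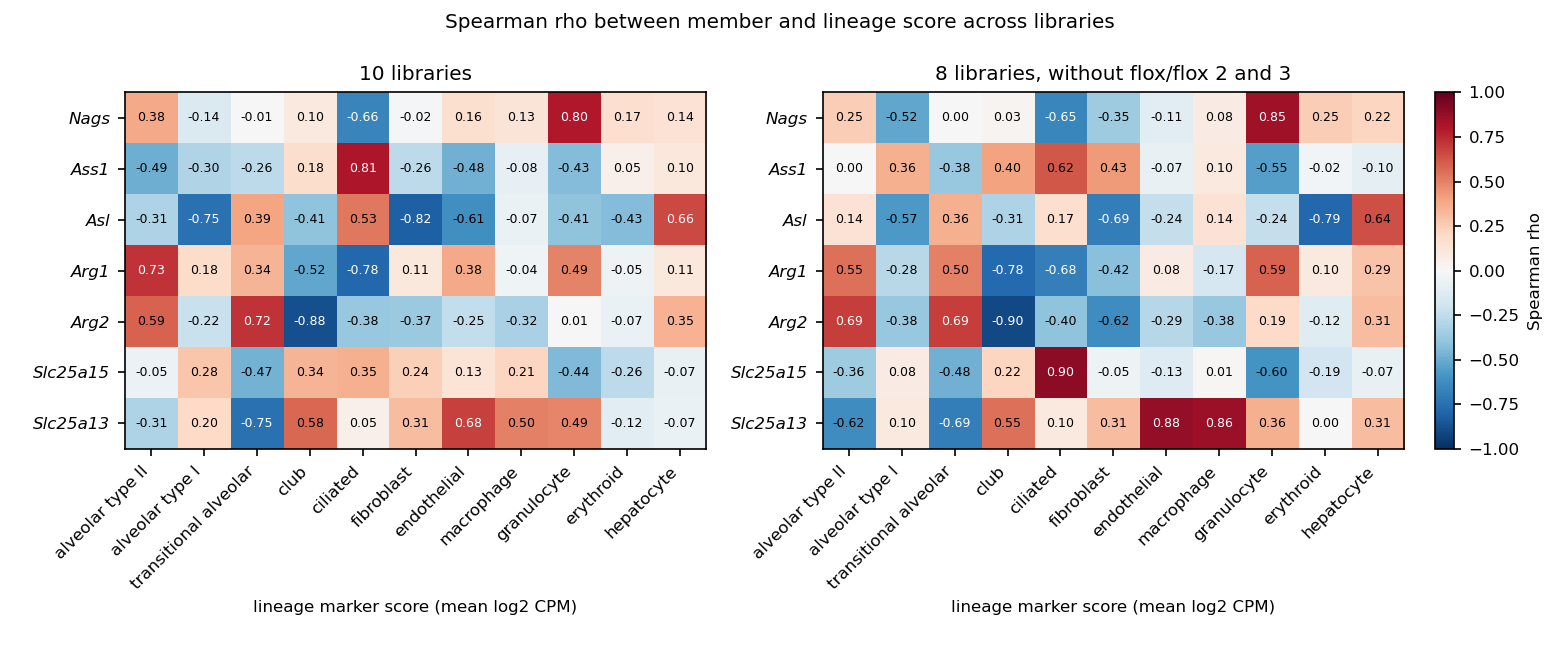
Spearman rho between each member (rows) and each lineage score (columns) over 10 libraries (left) and over 8 without flox/flox replicates 2 and 3 (right); color and printed value give rho from -1 to 1. The value farthest from 0 on the left is Arg2 with the club score at -0.88, which is -0.90 on the right.

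Ass1 ran with genes of ciliated cells, the airway cells with motile cilia. Its rho with the ciliated score was 0.81 (permutation p = 0.00714, adjusted p = 0.164) and its Pearson r 0.83 (permutation p = 0.00279, adjusted p = 0.146), and all 13 markers tested had a positive rho. The relation was weaker without flox/flox replicates 2 and 3, which were also the 2 libraries farthest from the median score (rho 0.62, r 0.53). The 14 ciliated markers summed to 6148 to 7313 CPM in flox/N211A, 12319 to 21659 in flox/flox and 3288 to 9755 in flox/+, and the gene Mcidas was at 0 in flox/flox and at most at 0.0599 CPM in flox/N211A and 1.95 in flox/+. Foxj1, the regulator of motile cilia, stood at 47.1 ± 17.3 CPM in flox/N211A, 174 ± 159 in flox/flox and 19.1 ± 10.3 in flox/+. The part of ciliated cells in the Ass1 difference of flox/flox against flox/+ was not tested.

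Over 10 libraries, Arg1 had its highest rho with alveolar type II cells, which make surfactant. It was 0.73 (permutation p = 0.0226, adjusted p = 0.203), with r = 0.73 (permutation p = 0.0141, adjusted p = 0.146), and 13 of 15 markers had a positive rho. Over the 8 libraries without flox/flox replicates 2 and 3, again the 2 farthest, rho was 0.55 and r 0.74. There the granulocyte score, which rests on 3 markers, gave Arg1 a higher rho of 0.59. The 15 markers, none at 0 in a whole genotype, summed to 56347 to 64762 CPM in flox/N211A, 28836 to 35861 in flox/flox and 57090 to 210120 in flox/+. Arg1 also ran against the ciliated score, with a rho of -0.78 (permutation p = 0.0113, adjusted p = 0.174), which was -0.68 over 8 libraries. With the club score the rho of Arg1 was -0.52 over 10 libraries and -0.78 over 8 (exact permutation p = 0.0301, adjusted p = 0.331). The part of these lineages in the absence of Arg1 reads from flox/flox was not tested.

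Arg2 had its highest positive rho with the transitional alveolar markers, keratins and other genes of cells that leave the type II state (0.72, permutation p = 0.0237, adjusted p = 0.203, and 0.69 over 8 libraries). Its relation to the club score, for the secretory cells of the airway, was the one farthest from 0 of all 77. That rho was -0.88 (permutation p = 0.00145, adjusted p = 0.112), with r = -0.80 (permutation p = 0.00674, adjusted p = 0.146), and 2 of 11 markers tested had a positive rho. It was -0.90 over 8 libraries, and r was -0.75 without the 2 farthest libraries. The 12 club markers, none at 0 in a whole genotype, summed to 118440 to 254640 CPM in flox/N211A, 57929 to 211150 in flox/flox and 31853 to 162790 in flox/+. The libraries with the highest Arg2, flox/+ replicates 3 and 4, had the lowest summed club levels. The part of club cells in the Arg2 values was not tested.

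**Figure D5:**
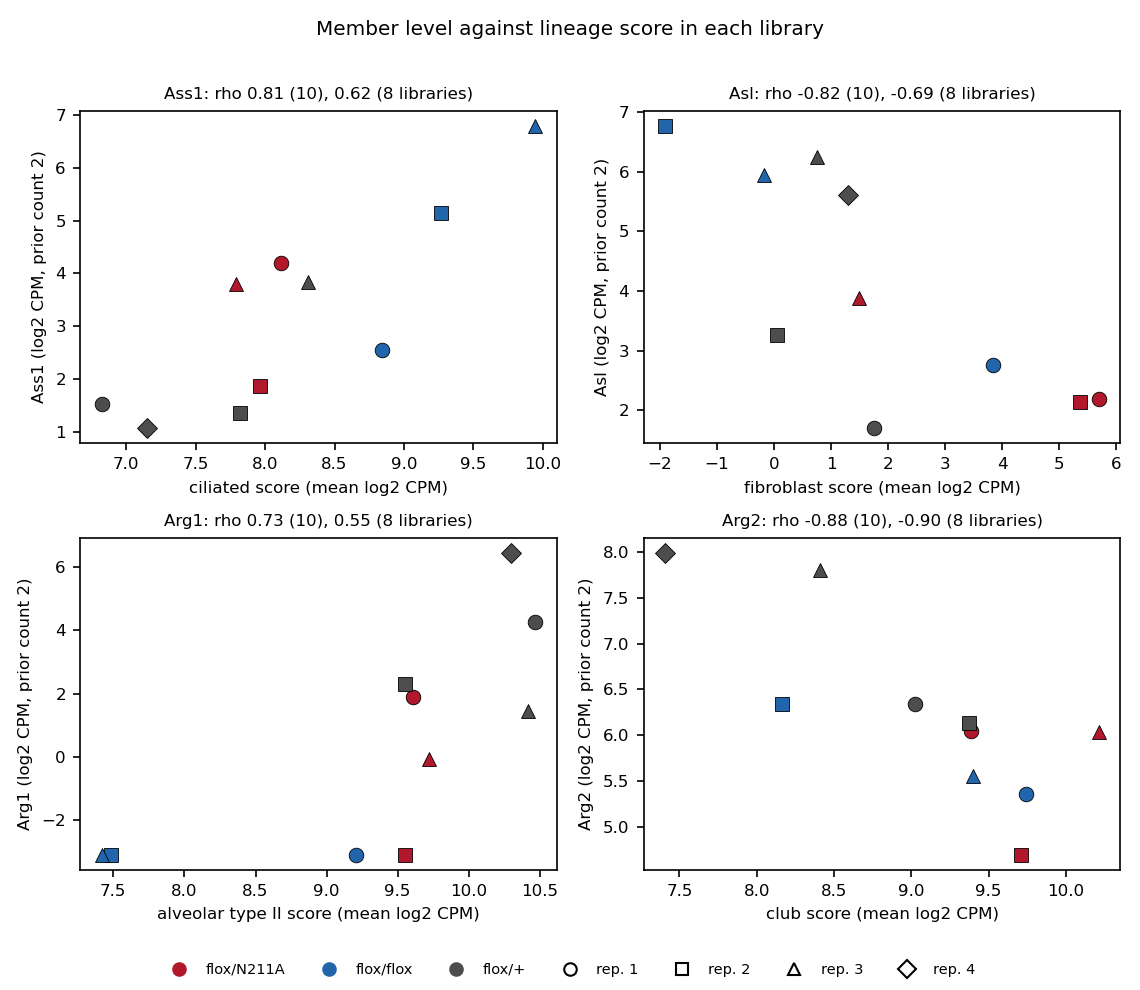
Member level (vertical axis, log2 CPM with a prior count of 2) against a lineage score (horizontal axis, mean log2 CPM of the markers) for Ass1 and ciliated, Asl and fibroblast, Arg1 and alveolar type II, and Arg2 and club; each point is a library, colored by genotype and shaped by replicate. Flox/flox replicates 2 and 3 lie at the upper right for Ass1, with rho 0.81 over 10 libraries and 0.62 without them.

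Asl ran against fibroblast genes, with a rho of -0.82 (permutation p = 0.00529, adjusted p = 0.164), r = -0.76 (permutation p = 0.0128, adjusted p = 0.146) and 0 of 7 tested markers at a positive rho. It was -0.69 over 8 libraries, and r was -0.67 without the 2 farthest libraries. The 14 fibroblast markers summed to 193 to 929 CPM in flox/N211A, 35.4 to 1565 in flox/flox and 92.5 to 282 in flox/+, with Lum at 0 in every library. Nearly all of the flox/flox sums was Gsn, which ran from 35.4 to 1563 CPM there. Gsn averaged 382 ± 185 CPM in flox/N211A, 966 ± 817 in flox/flox and 83.4 ± 31.8 in flox/+. With the alveolar type I score the rho of Asl was -0.75 (permutation p = 0.0166, adjusted p = 0.187), and -0.57 over 8 libraries. The highest positive rho of Asl, 0.66 with the hepatocyte score, rests on 3 markers (permutation p = 0.0438, adjusted p = 0.286). Nags had its highest rho, 0.80, with the granulocyte score, which also rests on 3 markers (permutation p = 0.00851, adjusted p = 0.164) and on the 3 libraries with Nags reads. Its rho with the ciliated score was -0.66 (permutation p = 0.0446, adjusted p = 0.286), with 0 of 13 tested markers at a positive rho. Slc25a15 had no rho above 0.35 over 10 libraries, and its rho with the ciliated score was 0.90 over the 8 without flox/flox replicates 2 and 3 (exact permutation p = 0.00516, adjusted p = 0.186). Parts of the fibroblast, alveolar type I, hepatocyte, granulocyte and ciliated markers in these values were not tested.

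Slc25a13 was the member that ran with the number of genes detected in a library, which was 9634 in flox/flox replicate 2, where it had 0 counts, and 15674 in flox/flox replicate 3. This relation and those with Apex1, looked at after the values were seen, gave a rho of 0.85 (permutation p = 0.00286, adjusted p = 0.0200 over the 7 members) and r = 0.88 (permutation p = 8.90e-04, adjusted p = 0.00623). Without flox/flox replicates 2 and 3, which were also the 2 farthest from the median, rho was 0.79 and r 0.71. Its highest lineage rho was 0.68 with the endothelial score (permutation p = 0.0349, adjusted p = 0.269), and it was 0.88 over 8 libraries. Without the 2 libraries farthest from the median endothelial score, that rho was 0.38 and r was 0.50. Farther from 0 was its rho with the transitional alveolar score, -0.75 (permutation p = 0.0170, adjusted p = 0.187), with 0 of 12 markers at a positive rho. That value was -0.69 over 8 libraries. The 12 endothelial markers summed to 47.6 to 197 CPM in flox/N211A, 3.98 to 94.4 in flox/flox and 27.2 to 90.6 in flox/+, with Tie1 at 0 in 8 of 10 libraries, flox/flox included. The part of detection, of endothelial cells or of transitional alveolar cells in the Slc25a13 level was not tested. With Apex1 no member had an adjusted p under 0.05 over the 7. Ass1 had the lowest rho, -0.60 (permutation p = 0.0736, adjusted p = 0.345), and -0.24 over 8 libraries, and Arg1 the highest, 0.56 (permutation p = 0.0985, adjusted p = 0.345), and 0.30 over 8 libraries.

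Single genes that most resembled each member were taken by Pearson r of log2 CPM over the 10 libraries, up to 5 for each, among 9818 genes. These r are the highest of the many searched and carry no test. Nags was matched by Rgs1 at 0.99, a regulator of G protein signaling of leukocytes, which had reads in the same 3 libraries (4.70 CPM in flox/N211A replicate 3, and 26.5 and 21.6 in flox/+ replicates 1 and 2), and then by Eif3f, Phlda1, Mrps21 and the neutrophil gene S100a9. The 5 nearest to Ass1 were Lrrc36 at 0.95, Slc9a3r1, Sfxn2, Zfp512b and Mapk15. Asl was nearest to Clic1 at 0.98, a chloride intracellular channel protein, followed by Tmem176a, Mir686, Tm2d2 and the mitochondrial deacetylase Sirt3. Clic1 stood at 107 CPM on average in flox/N211A, 622 in flox/flox and 330 in flox/+, the order of the Asl means.

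Arg1 was nearest to Kng2 at 0.98, a kininogen gene, which like Arg1 was highest in flox/+ replicate 4 at 314 CPM and had at most 0.0249 CPM in flox/flox. Next came St6galnac4, Wdr83os, the lymphocyte granzyme Gzma and Paip2b. Arg2 was nearest to Sdf2 at 0.91, Fkbp1a, the syndecan Sdc4 and Vti1b, whose exons overlap its own. Slc25a15 was nearest to Sclt1 at 0.91, a centriole protein gene, and then to Tent5a, Spata7, Tmem8b and Tatdn3. Slc25a13 was nearest to Fam126a at 0.99, Iigp1, Enpp1, Rcor3 and Slc35a1. Fam126a was at 0 in flox/flox replicate 2 like Slc25a13, and r was 0.97 over the 8 libraries without flox/flox replicates 2 and 3.

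Genes that feed the cycle or draw on it were taken as 3 lists, and none of their tested genes was called in any comparison. Of 12 genes of arginine transport and nitric oxide, 9 were tested, with a median log2 fold change of 0.02 in flox/N211A against flox/+, 0.82 in flox/flox against flox/+ and -0.37 in flox/N211A against flox/flox. Slc7a6, a transporter of cationic amino acids, stood at 32.4 ± 17.6 CPM in flox/N211A, 143 ± 44.1 in flox/flox and 31.9 ± 13.1 in flox/+. Its flox/flox libraries all lay above the others (log2 fold change 2.16 against flox/+, SE 0.65, unadjusted p = 0.00452, adjusted p = 0.245). Its partner Slc3a2 differed by less than its spread, at 96.7 ± 30.7, 113 ± 66.7 and 125 ± 62.4 CPM in the same genotypes. Slc7a7, another light chain for cationic amino acids, stood at 28.6 ± 5.78, 70.7 ± 41.3 and 30.6 ± 18.0 CPM, and the arginine importer Slc7a2 at 43.1 ± 15.2, 55.9 ± 59.3 and 14.2 ± 13.7 CPM. The inducible nitric oxide synthase Nos2 had 1 count in all, in flox/N211A replicate 1.

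Of 16 genes of the ornithine, proline and polyamine branch, 14 were tested, with medians of -0.23, -0.49 and 0.13 in that order. Oaz1, the antizyme that marks ornithine decarboxylase for breakdown, stood at 175 ± 39.0 CPM in flox/N211A, 537 ± 274 in flox/flox and 695 ± 500 in flox/+ (SD, n = 3, 3 and 4). All flox/N211A libraries lay below all others (log2 fold change -1.99 against flox/+, SE 0.63, unadjusted p = 0.00633, adjusted p = 1.00). Azin1, the antizyme inhibitor, stood at 288 ± 25.8, 254 ± 151 and 285 ± 42.8 CPM, ornithine decarboxylase Odc1 at 83.4 ± 60.2, 136 ± 69.7 and 82.3 ± 18.9, and ornithine aminotransferase Oat, which links ornithine to proline and glutamate, at 140 ± 37.1, 102 ± 46.5 and 202 ± 69.9 CPM. Groups of all 3 overlapped in every comparison.

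All 15 genes of glutamine, glutamate and aspartate supply were tested, with medians of 0.41, 0.23 and -0.54. The malate dehydrogenases of the cytosol and of mitochondria, Mdh1 and Mdh2, work with the aspartate carriers. Mdh1 stood at 152 ± 32.4 CPM in flox/N211A, 315 ± 121 in flox/flox and 296 ± 80.2 in flox/+, and Mdh2 at 94.2 ± 16.2, 253 ± 121 and 191 ± 89.8. The flox/N211A values of Mdh1 lay below all of flox/+ (log2 fold change -0.96, SE 0.46, adjusted p = 1.00), and those of Mdh2 below all of flox/flox (log2 fold change -1.42, SE 0.55, adjusted p = 0.386). The glutamine importer Slc1a5 stood at 92.0 ± 31.7, 171 ± 123 and 66.9 ± 34.8 CPM in the same genotypes, which overlapped throughout. The 9 urea cycle genes themselves summed to 107 ± 46.5 CPM in flox/N211A, 190 ± 93.9 in flox/flox and 248 ± 146 in flox/+.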

How the data were processed

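The build mm10 and the tools Trim Galore 0.5.0, HISAT2 2.1.0, featureCounts 1.6.4 and DESeq2 (no version) are named, per the submitters' processing notes, with no parameters. What the authors deposited were raw counts of reads per gene symbol, in whole numbers that were not normalized. The sources used here give neither the annotation nor the strand setting nor the handling of multi-mapping reads, so reads of overlapping genes, paralogs and pseudogenes are uncertain. Of 25277 symbols, 24418 were found in GENCODE M21, which gave positions on GRCm38 and exon lengths.

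Counts were fitted with edgeR 4.0.16 in R 4.3.3: filterByExpr on genotype, TMM factors, 1 quasi-likelihood fit of all 10 libraries on genotype alone, two-sided tests, Benjamini-Hochberg adjustment over 13464 genes with 0.05 as the threshold. The common dispersion came to 1.53 (biological coefficient of variation 1.24). CPM is the count over the TMM-scaled total. Scores are means of log2 CPM (prior count of 2) of the markers that passed the filter. Correlations had permutation p-values from 100000 resamples, or exact ones under 10 libraries (SciPy 1.17.1), adjusted over 77 relations. Scripts were tested on simulated data. A chi-square comparison found no replicates that agreed within sampling noise.

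Members, marker lists and tests were chosen with earlier results of these data known. Named were Apex1, the 9 members, the 5 genes nearest to each tested member by Pearson r (among genes that average 10 CPM or more in a genotype, clone names left out), the 4 highest genes of each pathway list and up to 4 markers of a lineage. Foxj1, Csf1r, Mertk and the markers said to be at or near 0 were chosen after their values were seen. Of the genes that the rule names, 2 are not reported here. Alternatives tried were DESeq2 1.42.0, limma 3.58.1 voom with quality weights, RLE factors, plain totals, no filter, a floor of 10 CPM in at least 3 libraries, fits of just the 2 genotypes, a replicate block, genes detected as a term, a prior count of 0.5, other motif limits, and libraries left out.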

Additional observations from a re-analysis of the deposited data

Results flagged for a closer look

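Ass1 in flox/+ replicate 3 stood at 14.2 CPM, far above the other 3 flox/+ libraries at 2.0 to 2.77 CPM. The gap to the nearest of them was 0.937 of the whole range of flox/+. Of 11 groups of 4 libraries looked at this way, 1 stood out. Chance gives about 1 in 20 for values with a normal spread, which CPM need not have. Cps1 and Otc, at 0 in all flox/+ libraries, could not stand out. The ciliated markers of that library summed to 9755 CPM, the highest of flox/+, and their part in its Ass1 level was not tested.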

How the results depend on the processing

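The spread between libraries, with 3 or 4 in a genotype, limits every call here, and levels under 0.282 CPM are within the floor of 3 counts of the shallowest library. Of 401 fold changes of members under alternatives, 372 kept direction and side of the threshold, 3 (all Arg1) passed it and 26 turned in direction. The 105 values for the highest relation of each member all kept direction. These relations were picked as the highest in the same libraries, so the kept direction is no support for them. The rho of Slc25a15 with the ciliated score fell as low as 0.12 with 1 library left out. In the order flox/N211A against flox/+, flox/flox against flox/+ and flox/N211A against flox/flox, the number of genes called was 0 in each, 17, 1027 and 671 with DESeq2, and 13, 196 and 96 with no filter. Members called were 1 with DESeq2 in each comparison with flox/flox and 1 with no filter in flox/flox against flox/+, Arg1 each time. Leaving out 1 library each gave 0 to 0, 0 to 399 and 0 to 244 genes; without flox/flox replicate 1 there were 399 and 244, without replicate 2 there were 4 and 2, without replicate 3 there were 11 and 6, and without flox/+ replicate 2 there was 1 in flox/flox against flox/+. With flox/flox replicates 2 and 3 both left out there were 49 and 16, the lone library being assumed to vary like the other genotypes. With motif runs of at least 2 G, 4 members held the motif, beside 78.7% of genes.

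Values that turned in flox/N211A against flox/flox were Arg2 at 0.18 (voom), 0.11 (plain totals), 0.026 (only these genotypes), 0.16 (genes detected), 0.37 (without flox/flox 2 and 3) and -0.30 to 0.24 (1 library left out), Slc25a15 at 0.57 (voom), 0.091 (plain totals), 0.24 (replicate block), 0.71 (genes detected) and -1.13 to 2.53 (1 left out), Slc25a13 at -0.44 (genes detected) and -0.060 to 1.68 (1 left out), and Ass1 at 1.06 and Asl at 0.22 (without flox/flox 2 and 3). In flox/flox against flox/+ they were Slc25a15 at 2.08 (voom), 0.58 (without flox/flox 2 and 3) and -3.52 to 1.00 (1 left out), Slc25a13 at -0.94 (voom) and -0.53 to 1.88 (1 left out), and Asl at -2.36 (without flox/flox 2 and 3). In flox/N211A against flox/+ it was Slc25a15 at 2.64 (voom) and -1.98 to 0.86 (1 left out). The causes were not tested. Nags gave no value for flox/N211A against flox/flox without flox/N211A replicate 3, which left no reads.

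Deviations of same-numbered libraries had correlations of -0.065 to 0.098, and 3 of 9 correlated best with their own number in both other genotypes. With so few libraries these values cannot decide whether the numbers pair the samples, so the number was a block only in an alternative. With the replicate block, 0, 1 and 0 genes were called and no member.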
